A study of Macaca mulatta with 81 samples.

Results

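Final blood T cells of rhesus macaques given Siro as the only prophylaxis after an allogeneic hematopoietic cell transplant (Siro.F, 4 arrays) were compared with those of recipients given no prophylaxis (NoRx.F, 4 arrays). The 8 arrays were chosen by their titles out of 81, so combinations of Siro with another agent are not among them. The labels do not spell Siro out; it is read here as sirolimus (rapamycin), which inhibits the kinase mTOR. Both groups share the allogeneic transplant, the sort of CD3 T cells from blood and the sampling point called final, for which no day is given, so the time since transplant cannot be set against the treatment. Each array is of a different animal: animals 13, 16, 17 and 18 in Siro.F, and 50, 51, 52 and 53 in NoRx.F. Animals 16, 17, 50, 51 and 52 carry the batch label 1, and animals 13, 18 and 53 the batch label 2. For reference, 34 arrays came from untransplanted healthy controls (Healthy.Control), among them arrays of animals 13, 16, 18 and 53. Dose, strain, sex and age are not given in the sources used here.

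Sirolimus binds the small protein FKBP12, and the pair blocks mTOR complex 1, a kinase that couples nutrients and cytokine signals to protein synthesis, mitochondrial activity and entry into the cell cycle. In T cells mTOR activity favours the shift from a resting state to a dividing effector state, and resting T cells keep transcripts such as TCF7 and CCR7 that activated cells lose. After an allogeneic transplant donor T cells react to the tissues of the host, which is graft-versus-host disease, and the drug is given to limit that reaction.

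All values are the log2 signal of an array probe set, and a difference is Siro.F minus NoRx.F from a limma fit over all 81 arrays with batch as a term, given with its SE. A gene is called at a Benjamini-Hochberg adjusted p under 0.05. Of 11806 genes tested 1425 were called (12.1%), 636 of them higher (5.39%) and 789 lower (6.68%) in Siro.F, and 2984 had an unadjusted p under 0.05. The median difference over all genes was -0.02. By at least 2-fold, 125 called genes were higher and 73 lower. For 1675 genes (14.2%) the 4 Siro.F values did not overlap the 4 NoRx.F values once the batch effect was removed, 6.56% of all genes in the higher and 7.63% in the lower direction, and 1002 of the 1675 were also called. The count rested in part on single arrays: it was 845 without Siro.F 16, 937 without Siro.F 17, 871 without NoRx.F 50, 924 without NoRx.F 52 and 1681 without NoRx.F 53. In batch 1 alone (2 arrays against 3) 1329 genes were called, in batch 2 alone (2 against 1) 4. The small number of arrays limits the precision of every difference.

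**Figure D1:**
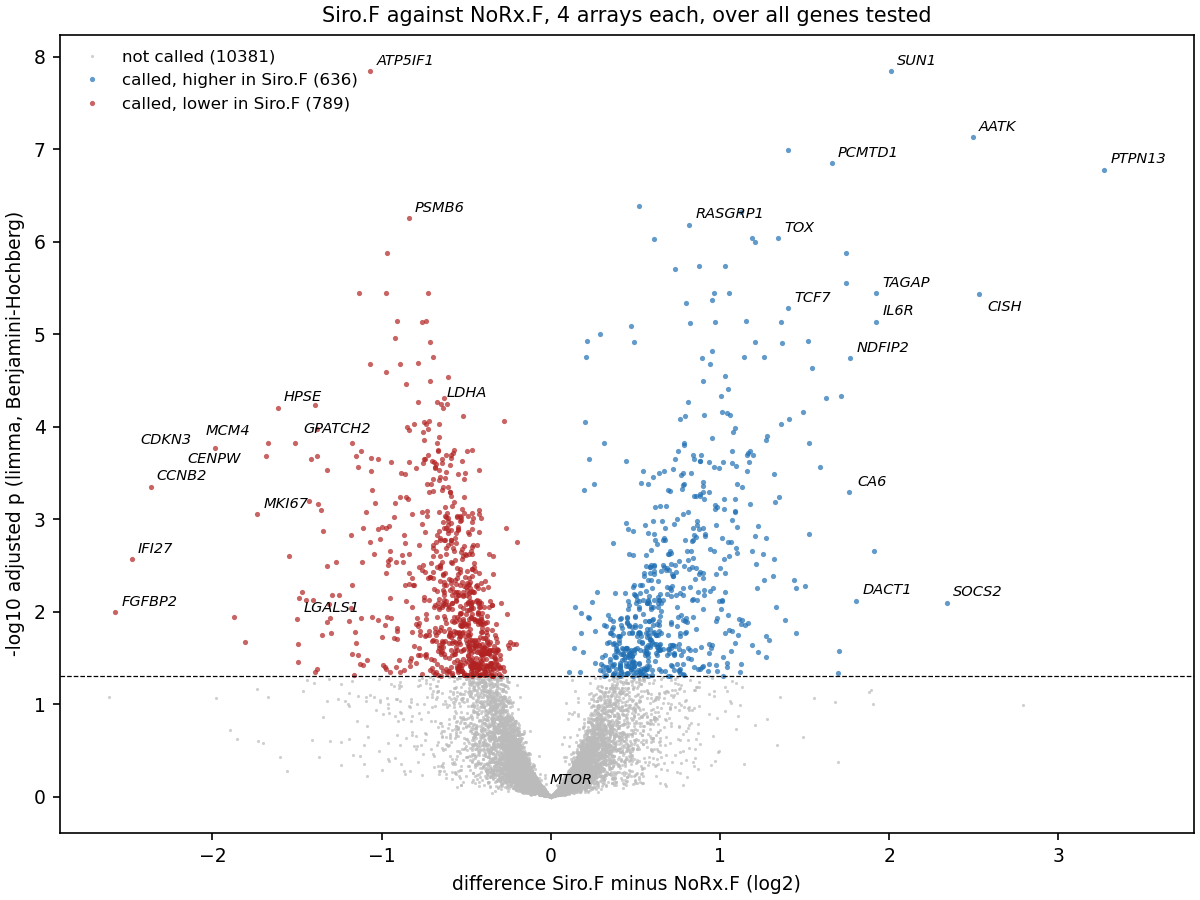
Each point is 1 of the 11806 genes tested; the horizontal axis is the log2 difference Siro.F minus NoRx.F and the vertical axis is -log10 of the limma adjusted p, with a dashed line at 0.05. PTPN13 stands farthest to the right at 3.27, SUN1 and ATP5IF1 highest, and MTOR lies near 0 on both axes.

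The largest rise was that of PTPN13, a large non-receptor tyrosine phosphatase. Its log2 signal was 7.44, 8.13, 8.10 and 7.44 in Siro.F 13, 16, 17 and 18, and 4.72, 4.30, 4.01 and 4.98 in NoRx.F 50, 51, 52 and 53. The groups were far apart, and the NoRx.F values lay around 4.65, the level set as the filter on low values, so the size of the fold is limited by the dim signal there. The difference was 3.27 ± 0.42 (9.65-fold, limma adjusted p 1.66e-07), with 3.77 in batch 1 and 2.46 in batch 2. SUN1, a protein of the inner nuclear membrane that ties the nuclear lamina to the cytoskeleton, was at 10.76, 10.90, 11.03 and 10.48 in Siro.F and at 9.03, 8.02, 8.92 and 9.13 in NoRx.F. It rose by 2.01 ± 0.23 (limma adjusted p 1.43e-08), and the smallest distance between the groups, from NoRx.F 53 to Siro.F 18, was wider than the whole range within Siro.F. A second probe set of SUN1 gave 1.98. AATK, a kinase named for its induction during apoptosis, was at 11.47, 10.80, 10.82 and 9.96 in Siro.F against 8.20, 8.19, 7.74 and 8.93 in NoRx.F, a rise of 2.49 ± 0.31 (limma adjusted p 7.42e-08). Another, dimmer probe set of AATK gave -0.03.

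The other large rises were of genes with diverse roles. IL6R, the receptor chain for interleukin 6, rose by 1.92 ± 0.30, and TAGAP, a gene of activated T cells, by 1.92 ± 0.29. The 10 largest rises and 10 largest falls were picked among called genes whose groups did not overlap once the batch effect was removed. So the lack of overlap in IL6R, TAGAP and the other genes of this choice follows from it and is no further support. For TAGAP the array nearest to Siro.F was NoRx.F 53 at 10.18, against 8.20 to 8.91 in the other NoRx.F arrays. NDFIP2, an adaptor of NEDD4 ubiquitin ligases, rose by 1.77 ± 0.29 and CA6, a secreted carbonic anhydrase, by 1.76 ± 0.37. DACT1, a modulator of Wnt signalling, rose by 1.80 ± 0.48, with 9.0 and 8.86 in Siro.F 17 and 13 but 7.04 and 6.87 in Siro.F 16 and 18. Its call was lost without Siro.F 17.

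**Figure D2:**
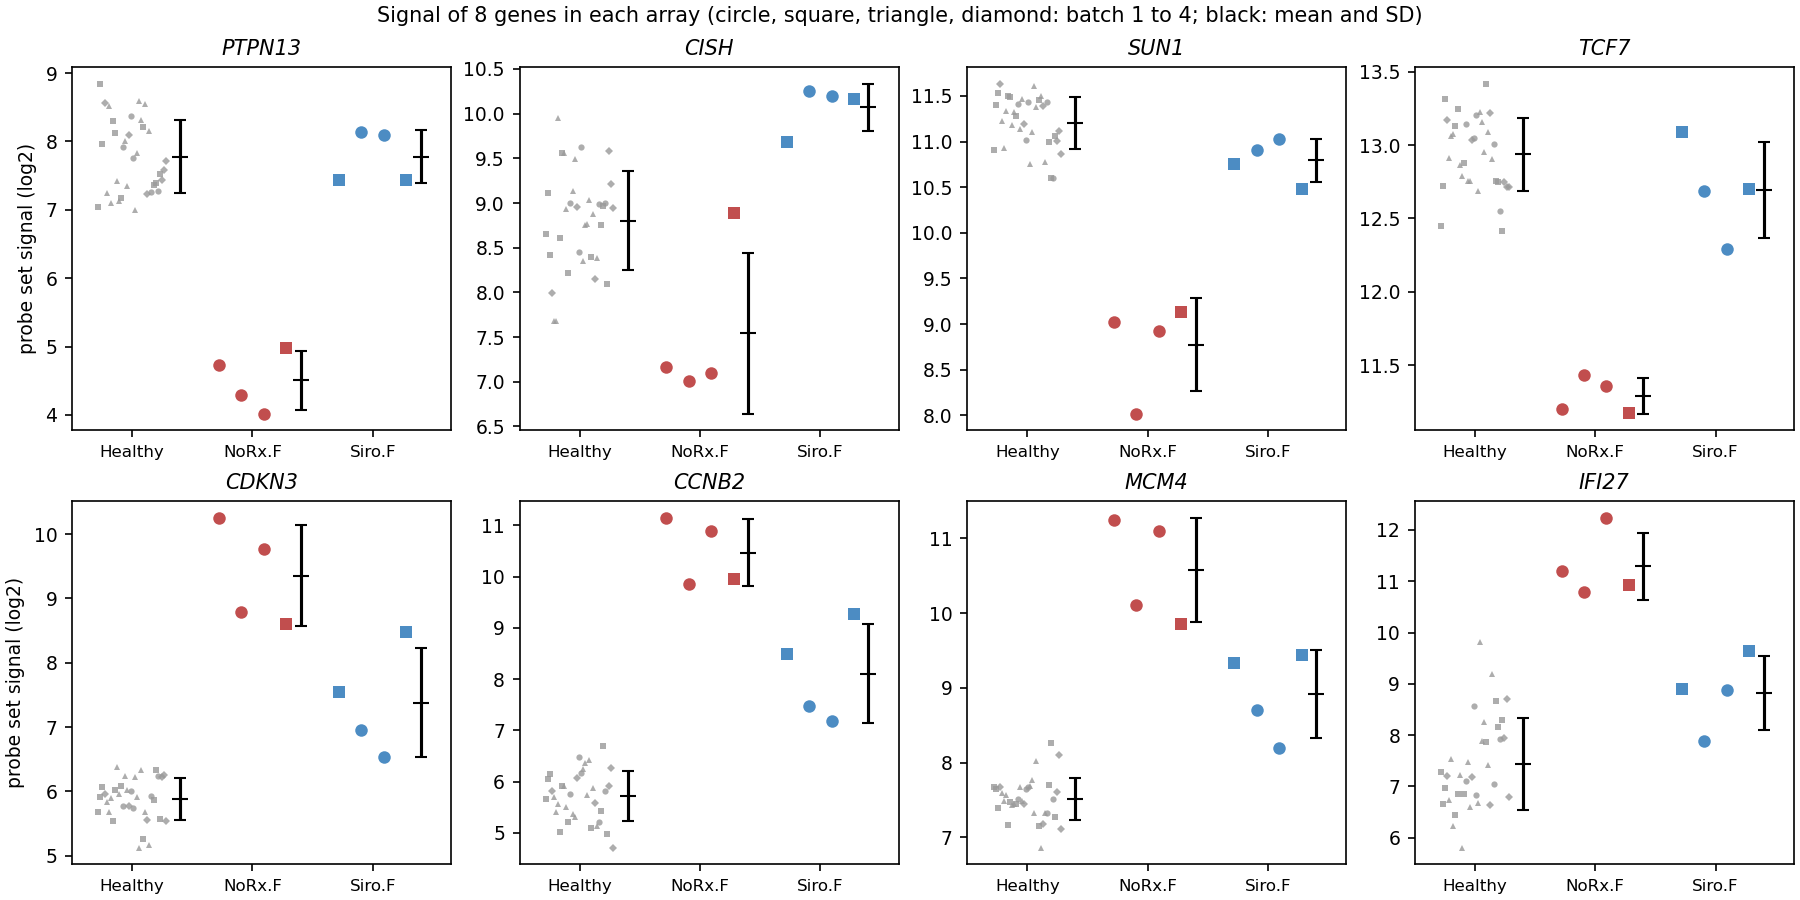
Points are the log2 probe set signal of 8 genes in each array of the healthy controls (34), NoRx.F (4) and Siro.F (4), with symbols by batch and the mean and SD in black. In all 8 genes the Siro.F and NoRx.F arrays do not overlap. All but TCF7 are among the largest rises and falls, which were picked for lack of overlap. For CDKN3 the nearest arrays, Siro.F 18 at 8.48 and NoRx.F 53 at 8.61, almost touch. Siro.F lies within the healthy range for PTPN13 and above it for CDKN3, CCNB2 and, in 3 of 4 arrays, CISH.

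Some genes that cytokine signals induce or that restrain those signals were called higher in Siro.F. Of the 16 tested genes of the cytokine feedback list 4 were called, all higher (CISH, SOCS2, PIM1 and PIAS1), against 5.39% of all genes. The median of the list was 0.26, and the list was chosen with earlier results of these data known. CISH, an inhibitor of STAT5 signalling that STAT5 itself induces, was at 9.68, 10.25, 10.19 and 10.16 in Siro.F and at 7.16, 7.01, 7.10 and 8.89 in NoRx.F. NoRx.F 53 stood apart from the other untreated recipients but below all Siro.F arrays. The rise was 2.53 ± 0.38 (5.78-fold, limma adjusted p 3.68e-06), 3.13 in batch 1 and 1.03 in batch 2, and a second probe set gave 0.68. SOCS2, a suppressor of growth hormone and cytokine receptors, was at 8.34, 7.07, 9.30 and 7.12 in Siro.F and at 5.47, 5.20, 4.88 and 6.87 in NoRx.F, a rise of 2.34 ± 0.63 (limma adjusted p 0.00799) that was lost without Siro.F 17. PIM1, a survival kinase downstream of STAT5, rose by 0.79 ± 0.16. PIAS1 rose by 0.65 ± 0.17, a call lost without Siro.F 16 and with the mean of its probe sets. The other PIAS1 probe sets gave 0.13, 0.16, 0.37, 0.06 and 0.28.

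Of the 21 tested genes of JAK, STAT and cytokine receptors 4 were called, all higher, against 5.39% of all genes. They were IL6R, IL27RA, IL4R and STAT5B. IL27RA, the receptor for interleukin 27, was at 10.83, 11.15, 11.14 and 11.17 in Siro.F and 10.09, 10.13, 10.01 and 10.68 in NoRx.F, and rose by 0.84 ± 0.18 (limma adjusted p 0.000567). The calls of STAT5B (0.42 ± 0.13) and IL4R (0.78 ± 0.27) were lost when single arrays were left out, STAT5B without 3 of the 8 and IL4R without 6; 2 members were called without Siro.F 17, NoRx.F 50 or NoRx.F 51. The median of the list, 0.05, was near that of all genes.

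None of the transcripts of MTOR, RPTOR, RICTOR and RPS6KB1 passed the threshold. MTOR, the kinase, was at 8.67, 8.49, 8.61 and 8.63 in Siro.F and at 8.64, 8.55, 8.77 and 8.59 in NoRx.F, overlapping groups with a difference of -0.04 ± 0.11 (limma adjusted p 0.848). RPTOR, the scaffold of mTOR complex 1, differed by 0.06 ± 0.14 and RPS6KB1, the ribosomal S6 kinase, by -0.02 ± 0.14. RICTOR, the scaffold of complex 2, differed by 0.41 ± 0.15 (limma adjusted p 0.0559). FKBP1A, which encodes FKBP12, had a probe set at 4.04 to 4.73 in the 8 arrays, near or below the level of the filter, so little can be said of it. EIF4EBP1, a repressor of cap-dependent translation under mTOR, is not among the genes named on the array here.

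Of the 40 tested genes of the mTOR pathway list 5 were higher and 4 lower, against 5.39% and 6.68% of all genes, with a median of 0.02. The 5 that rose were SESN1, PIK3CA, PIK3R1, TSC1 and RPS6. SESN1, a sestrin that restrains mTOR complex 1 when leucine is scarce, was at 8.30, 9.01, 8.53 and 8.74 in Siro.F and at 7.45, 6.91, 6.67 and 8.23 in NoRx.F, and rose by 1.32 ± 0.32 (limma adjusted p 0.00272). The groups did not overlap, with NoRx.F 53 close to Siro.F 13. PIK3CA, a catalytic subunit of PI3 kinase upstream of mTOR, rose by 0.97 ± 0.21. The 4 that fell were AKT1S1, LAMTOR1, LAMTOR2 and MAPKAP1, and the number called lower was 0 without Siro.F 16 and 2 without NoRx.F 50. The number called higher was 3 without Siro.F 18, NoRx.F 50 or NoRx.F 51. LAMTOR1, an anchor of mTOR complex 1 on the lysosome, fell by 0.50 ± 0.13. MAPKAP1, a subunit of complex 2, fell by 0.64 ± 0.16, while its other probe sets gave -0.19 and 0.13.

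Among metabolic genes that mTOR is known to promote, the genes called were all lower, where 6.68% of all genes were called lower. In glycolysis 4 of 16 tested genes were called, all lower, with a list median of -0.20 that was -0.52 in batch 1 and -0.07 in batch 2. LDHA, which converts pyruvate to lactate, was at 12.79, 12.74, 12.61 and 12.76 in Siro.F and at 13.56, 13.35, 13.45 and 13.13 in NoRx.F. It fell by 0.65 ± 0.12 (limma adjusted p 5.64e-05), with Siro.F arrays close together and all below NoRx.F. ENO1, the enolase, fell by 0.52 ± 0.09. The calls of GAPDH (-0.66 ± 0.18) and PFKP (-0.54 ± 0.18) were lost without NoRx.F 50, that of PFKP also without NoRx.F 52, Siro.F 13, Siro.F 16 or Siro.F 17; 2 members were called without NoRx.F 50.

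In sterol and fatty acid synthesis 2 of 18 genes were called, both lower, where 6.68% of all genes were called lower. INSIG1, a sterol sensor that SREBP induces, fell by 0.69 ± 0.17, and PMVK, an enzyme of the mevalonate pathway, by 0.82 ± 0.21. Among amino acid transport and ATF4 target genes, 2 of 13 were called, both lower. With 2 members called in each list, these counts are too small to be set against that share. PHGDH, the first enzyme of serine synthesis, was at 7.47, 6.34, 6.91 and 7.34 in Siro.F and 8.46, 8.05, 8.59 and 7.67 in NoRx.F, and fell by 1.18 ± 0.30 (limma adjusted p 0.00512). SHMT2, the mitochondrial enzyme that takes 1-carbon units from serine, fell by 0.70 ± 0.21, but the groups overlapped at Siro.F 13 and NoRx.F 53. Without Siro.F 16 neither PHGDH nor SHMT2 was called. SHMT2 also lost its call without NoRx.F 50 or NoRx.F 52, and in batch 2 its difference was 0.09.

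Genes of the cytosolic ribosome were called higher more than lower, and 1 translation factor was called. Of 27 tested proteins of the cytosolic ribosome 11 were called higher and 1 lower, and 25 differences were above 0, with a median of 0.20. These genes are bright and the rises were small: RPS6, the ribosomal protein that S6 kinase modifies, was at 14.30, 14.20, 14.21 and 14.23 in Siro.F and at 14.10, 14.04, 14.06 and 13.97 in NoRx.F, a rise of 0.20 ± 0.04 (limma adjusted p 0.00048). RPL10A rose by 0.44 ± 0.09 and RPL30 by 0.21 ± 0.03, with no overlap of the groups in either. RPL24 went the other way and fell by 1.25 ± 0.33. The count of members called higher depended on the fit more than the median did: it was 7 without Siro.F 13, Siro.F 16 or Siro.F 17, 2 in batch 1 alone and 1 with the spread taken from the 8 arrays only, while the median was 0.14 in batch 1 and 0.22 in batch 2. Among 27 translation factors and ribosome biogenesis genes 1 was called, EIF2S2, a subunit of the factor that brings the initiator tRNA, which fell by 0.67 ± 0.13. Its other probe sets gave -0.52, -0.03, 0.02 and 0.07.

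Mitochondrial genes made up one of the groups with the largest share of calls. Of 32 tested subunits and regulators of oxidative phosphorylation 20 were lower and 2 higher, against 6.68% lower over all genes, with a median of -0.44. ATP5IF1, an inhibitor of the mitochondrial ATP synthase, shared with SUN1 the smallest adjusted p of the comparison. It was at 9.52, 9.20, 9.11 and 9.47 in Siro.F and at 10.42, 10.45, 10.54 and 10.14 in NoRx.F, and fell by 1.07 ± 0.12 (limma adjusted p 1.43e-08). The groups did not overlap, and the fall was 1.32 in batch 1 and 0.64 in batch 2. SDHB, the iron-sulfur subunit of succinate dehydrogenase, fell by 0.70 ± 0.12 and NDUFB3, a subunit of complex I, by 0.66 ± 0.12. The 2 members that rose were COX7A2 (0.85) and NDUFV2 (0.79), and 1 was called higher without Siro.F 17 or NoRx.F 53. Of 31 mitochondrial ribosomal proteins 19 were called, all lower, with a median of -0.43. MRPS14 fell by 0.84 ± 0.17 and MRPL12 by 0.73 ± 0.15, and their groups did not overlap. The other, dimmer probe sets of MRPS14 gave 0.21 and -0.52.

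The calls among proteasome genes had the same direction. Of 25 tested subunits and activators 16 were called, all lower, none of the 25 differences was above 0, and the median was -0.52. PSMB6, a catalytic subunit of the standard proteasome, was at 11.09, 10.59, 10.76 and 10.92 in Siro.F and at 11.88, 11.59, 11.82 and 11.41 in NoRx.F. It fell by 0.84 ± 0.11 (limma adjusted p 5.56e-07). PSMB10, a catalytic subunit of the immunoproteasome, fell by 0.84 ± 0.18, PSMB2 by 0.72 ± 0.13, and PSME2, a subunit of the interferon-induced activator, by 0.75 ± 0.15. In each of these the 4 Siro.F arrays were below the 4 NoRx.F arrays. The other, dimmer probe sets of PSMB2 gave 0.34 and -0.28.

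The size of these shifts differed between the batches and between animals. The medians in batch 1 and batch 2 were -0.68 and -0.10 for oxidative phosphorylation, -0.64 and -0.13 for the mitochondrial ribosome, and -0.72 and -0.20 for the proteasome. Without Siro.F 16, Siro.F 17, NoRx.F 50 or NoRx.F 52 the number of oxidative phosphorylation genes called lower was 9, 12, 11 and 11, and that of mitochondrial ribosomal proteins 10, 11, 10 and 11. The proteasome kept 12 to 18 calls in every such fit. These counts were 8, 4 and 4 with the spread taken from the 8 arrays only.

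**Figure D3:**
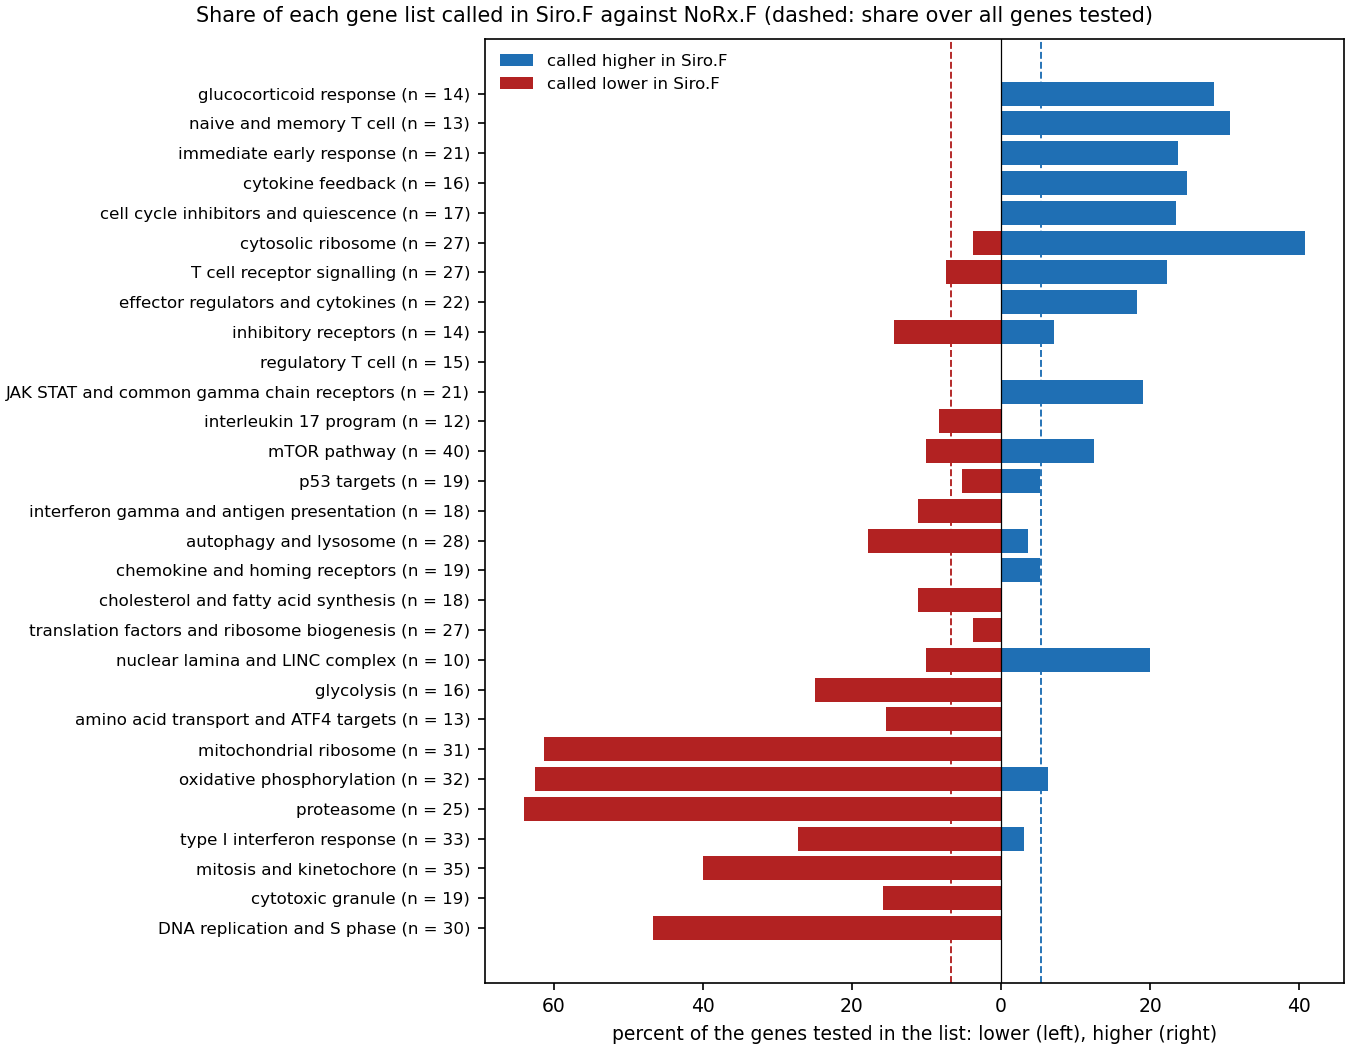
Bars give the percent of the tested genes of each list that were called lower (red, left) or higher (blue, right) in Siro.F against NoRx.F, ordered by the median difference of the list; dashed lines are the shares over all genes, 6.68% lower and 5.39% higher. The proteasome, oxidative phosphorylation and mitochondrial ribosome lists have the longest bars to the left and the cytosolic ribosome the longest to the right.

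A part of the genes of DNA replication and mitosis was called lower in Siro.F, unevenly across animals. Of 30 tested replication genes 14 were called and of 35 mitotic genes 14, all lower, against 6.68% of all genes, with medians of -0.74 and -0.67. CCNB2, a cyclin of mitotic entry, was at 8.49, 7.48, 7.18 and 9.28 in Siro.F and at 11.15, 9.86, 10.89 and 9.95 in NoRx.F, and fell by 2.36 ± 0.49 (5.15-fold, limma adjusted p 0.000446). CDKN3, a phosphatase of cyclin-dependent kinases that peaks in dividing cells, was at 7.55, 6.96, 6.54 and 8.48 against 10.26, 8.79, 9.76 and 8.61, and fell by 1.98 ± 0.38 (limma adjusted p 0.00017). In both genes the lowest arrays were Siro.F 16 and 17 and the highest NoRx.F 50 and 52, while Siro.F 18 came close to NoRx.F 51 and 53. MKI67, the marker of dividing cells, fell by 1.74 ± 0.38 and CENPW, a centromere protein, by 1.68 ± 0.33. CENPA, the histone of the centromere, fell by 1.17 ± 0.22 with the Siro.F arrays at 6.46 to 7.07 and the NoRx.F arrays at 7.42 to 8.06.

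Of the helicase that opens replication origins 4 subunits are named here. They were picked by smallest adjusted p within their list, so that each was called follows from this choice. MCM4 fell by 1.67 ± 0.32, MCM3 by 1.42 ± 0.28, MCM5 by 1.38 ± 0.25 and MCM2 by 1.36 ± 0.29. The other subunits are not given here. MCM4 was at 9.34, 8.70, 8.19 and 9.44 in Siro.F and at 11.25, 10.11, 11.11 and 9.86 in NoRx.F. That these groups did not overlap follows from the choice of the largest falls. PCNA, the sliding clamp of the replication fork, fell by 0.97 ± 0.24, with Siro.F 18 at 11.56 next to NoRx.F 53 at 11.57.

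Within batch 1 the median difference was -1.17 for replication and -1.20 for mitosis, and within batch 2 it was -0.03 and 0.00. The single NoRx.F array of batch 2, animal 53, had a mean of the mitosis list 1.64 above the healthy mean, and the Siro.F arrays of that batch were at 1.25 (animal 13) and 1.99 (animal 18). In batch 1 the NoRx.F arrays were at 2.25, 1.45 and 2.21 (animals 50, 51 and 52) and the Siro.F arrays at 0.81 and 0.60 (animals 16 and 17). So the mean of the mitosis list overlapped between the groups through Siro.F 18, and Siro.F 16 and 17 had the lowest values. Members called lower in replication and mitosis numbered 6 and 8 without Siro.F 16, 6 and 8 without Siro.F 17, 6 and 6 without NoRx.F 50, and 8 and 7 without NoRx.F 52. CCNB2, CDKN3, MKI67, CENPW, CENPA and the MCM genes named above kept their call in every fit with an array left out. The other, dimmer probe sets of MKI67 gave -0.08 and -0.57, and that of CDKN3 gave -0.62.

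**Figure D4:**
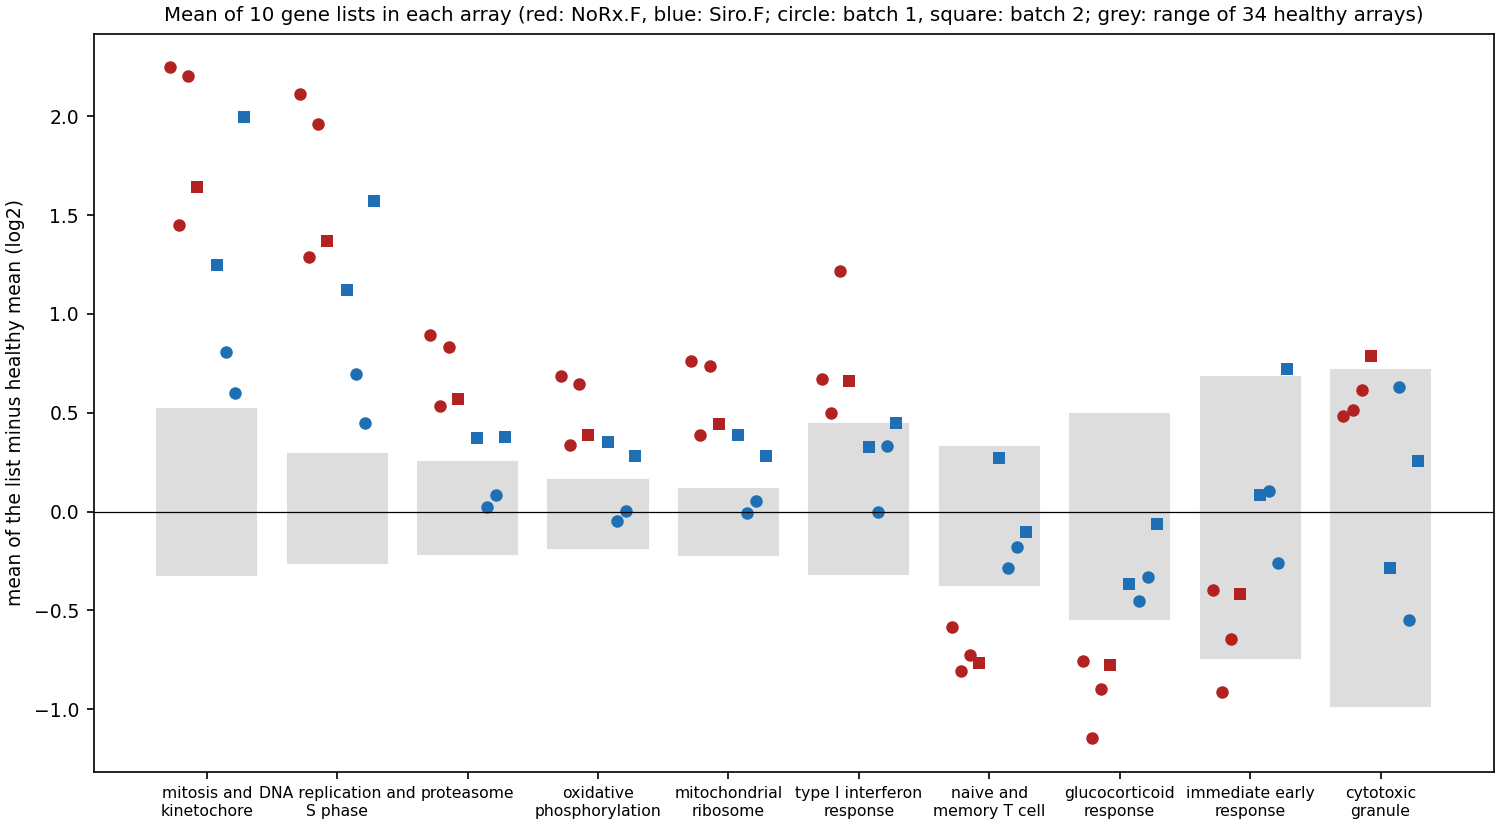
Points are the mean of a gene list in 1 array minus its mean in the healthy controls (log2), for 4 NoRx.F arrays in red and 4 Siro.F arrays in blue, circles for batch 1 and squares for batch 2; grey bars span the 34 healthy arrays. The groups overlap for mitosis, DNA replication, the mitochondrial lists and cytotoxic granules and stay apart for the proteasome, type I interferon, naive, glucocorticoid and immediate early lists.

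Some genes that hold cells out of the cycle rose. Of 17 tested genes of quiescence and cell cycle inhibition 4 were called, all higher, against 5.39% of all genes. The median was 0.26, with 0.19 in batch 1 and 0.24 in batch 2. The list means overlapped between the groups, with Siro.F 13 and 16 below NoRx.F 53. PCMTD1, a protein related to repair methyltransferases, was at 9.01, 9.58, 9.30 and 9.14 in Siro.F and at 7.5, 7.13, 7.40 and 8.29 in NoRx.F. It rose by 1.66 ± 0.21 (limma adjusted p 1.41e-07), with NoRx.F 53 the nearest of the untreated recipients. CDKN1B, the inhibitor p27 of cyclin-dependent kinases, rose by 0.90 ± 0.18 and KLF6 by 1.00 ± 0.25. FOXP1, a transcription factor that keeps naive T cells at rest, rose by 0.49 ± 0.16, a call lost without any 1 of 5 of the 8 arrays.

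Some markers of naive and resting T cells rose too. Of 13 tested genes 4 were called, all higher (TCF7, ZBTB20, TXNIP and FOXP1), against 5.39% of all genes. FOXP1 is also counted in the quiescence list above. Differences above 0 numbered 11, and the median was 0.65, with 0.52 in batch 1 and 0.76 in batch 2. TCF7, the transcription factor TCF1 of naive and memory T cells, was at 13.09, 12.69, 12.29 and 12.70 in Siro.F and at 11.20, 11.43, 11.36 and 11.18 in NoRx.F. The NoRx.F arrays were close together and all below Siro.F, and the rise was 1.40 ± 0.22 (limma adjusted p 5.24e-06), with 0.99 and 0.11 for its dimmer probe sets. ZBTB20, a zinc finger repressor, rose by 1.75 ± 0.25, from 5.72 to 6.50 in NoRx.F to 7.56 to 8.15 in Siro.F. CCR7, the homing receptor for lymph nodes, differed by 1.07 ± 0.43 with no overlap between the groups but missed the threshold (limma adjusted p 0.0967). In these bulk T cells a change in the share of a cell type and a change in the RNA per cell cannot be told apart.

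Among signalling genes of the T cell receptor 6 of 27 were called higher and 2 lower, against 5.39% and 6.68% of all genes. The median was 0.14. This list was chosen with earlier results of these data known, so its count is no independent result. The 6 include PTPN13 and TAGAP, and the 2 lower were CD8B and RCAN1, of which none was called without Siro.F 17 or NoRx.F 50 and 1 without Siro.F 16, Siro.F 18, NoRx.F 51, NoRx.F 52 or NoRx.F 53. RASGRP1, which activates Ras below the receptor, was at 11.85, 11.69, 11.61 and 11.49 in Siro.F and at 10.69, 10.66, 10.78 and 11.22 in NoRx.F, and rose by 0.82 ± 0.11 (limma adjusted p 6.54e-07). NFATC1, a transcription factor that calcineurin activates, was at 10.19, 10.09, 10.38 and 10.77 in Siro.F and at 8.87, 9.17, 9.19 and 9.56 in NoRx.F, and rose by 1.16 ± 0.22 (limma adjusted p 0.000205). Both genes separated the groups fully. The other probe sets of NFATC1 gave 0.57, 0.18 and 0.08.

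Immediate early genes, which are transcribed within a short time of a stimulus, were called higher in 5 of 21, against 5.39% of all genes. Their median was 0.54. MYC, a driver of growth, was at 10.63, 10.08, 9.95 and 10.28 in Siro.F and at 8.78, 8.75, 8.45 and 8.86 in NoRx.F, a rise of 1.53 ± 0.35 (limma adjusted p 0.00144) with no overlap, 1.35 in batch 1 and 1.60 in batch 2. ZFP36L1, an RNA-binding protein that speeds the decay of transcripts, rose by 1.07 ± 0.20. CD69 (1.45 ± 0.43), JUNB (1.19 ± 0.37) and RGS1 (1.70 ± 0.59) were called as well but not without Siro.F 18, NoRx.F 51 or NoRx.F 52, and 2 members of the list were called without any 1 of these arrays. For JUNB the call was also lost without Siro.F 13, and for RGS1 without Siro.F 13, Siro.F 16 or NoRx.F 53, with the animal as a replicate block, with no filter, with the actin covariate and in batch 1 alone.

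Genes known to respond to glucocorticoids were called higher in 4 of 14, against 5.39% of all genes. Their median was 0.74, with 0.57 in batch 1 and 0.36 in batch 2. TSC22D3, the leucine zipper GILZ, was at 12.24, 12.02, 12.54 and 12.26 in Siro.F and at 11.14, 11.20, 11.22 and 11.90 in NoRx.F, and rose by 0.90 ± 0.20 (limma adjusted p 0.00125). ARRDC3, an arrestin-like protein, rose by 1.21 ± 0.30, and IL1R2, a decoy receptor for interleukin 1, by 0.88 ± 0.22. The other probe sets of IL1R2 gave -0.43, -0.08 and 0.05, and with the mean of its probe sets it was not called. The list kept 4 calls with any 1 of the 8 arrays left out. Treatment with glucocorticoids is not stated in the labels for either group.

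Some of the interferon-stimulated genes were called lower in Siro.F, and the median of the whole list was below 0. Of 33 tested genes of the type I interferon response 9 were lower and 1 higher (DHX58), against 6.68% and 5.39% of all genes. The median was -0.60, with -0.54 in batch 1 and -0.34 in batch 2. IFI27, a gene strongly induced by interferon, was at 8.90, 7.88, 8.88 and 9.63 in Siro.F and at 11.20, 10.79, 12.24 and 10.93 in NoRx.F, and fell by 2.48 ± 0.60 (5.57-fold, limma adjusted p 0.00272). ISG15, a ubiquitin-like modifier, fell by 1.30 ± 0.37, with Siro.F 16 lowest at 8.26 and NoRx.F 52 highest at 11.12; without either array it was not called. ISG20, an exonuclease, fell by 0.78 ± 0.18 and BST2, the viral tether tetherin, by 0.73 ± 0.18. Without Siro.F 16 or NoRx.F 52 the list had 3 members called lower, with medians of -0.42 and -0.33. DHX58 was not called without Siro.F 18, NoRx.F 51 or NoRx.F 52. In the interferon gamma list 2 of 18 were called, both lower, of which PSMB10 is also a proteasome gene. WARS1, a tRNA synthetase induced by interferon gamma, fell by 1.18 ± 0.27, and IRF1 differed by 0.53 ± 0.21 (limma adjusted p 0.0838).

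Cytotoxic granule genes had a low median, -0.69, and 3 of 19 were called, all lower, against 6.68% of all genes. FGFBP2, a secreted protein of killer lymphocytes, differed by -2.57 ± 0.71 (limma adjusted p 0.0101), from 10.92, 10.14, 10.68 and 8.92 in NoRx.F to 8.15, 8.71, 6.60 and 7.0 in Siro.F; it was not called without Siro.F 17. GNLY, the pore-forming granulysin, differed by -1.40 ± 0.48 and lost its call with any 1 of the 8 arrays left out. CTSW, a protease of killer cells, differed by -1.15 ± 0.35, a call lost without Siro.F 16, Siro.F 17 or NoRx.F 52. GZMB, the granule protease granzyme B, was at 13.31, 13.96, 12.22 and 13.65 in Siro.F and at 14.57, 14.59, 14.77 and 14.19 in NoRx.F. These values did not overlap, with Siro.F 17 lowest, and the difference of -1.26 ± 0.50 missed the threshold (limma adjusted p 0.0881). Without Siro.F 17 no member of the list was called, and 1 was without Siro.F 16 or NoRx.F 52.

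Among effector regulators and cytokines 4 of 22 were called, all higher, against 5.39% of all genes, and the median was 0.14. Without Siro.F 18 the count was 2 of 22. EOMES, a T-box factor of effector and memory CD8 T cells, was at 10.61, 9.83, 9.75 and 11.0 in Siro.F and at 8.23, 9.42, 8.68 and 9.02 in NoRx.F, and rose by 1.45 ± 0.38 (limma adjusted p 0.0056). LTB, lymphotoxin beta, rose by 1.07 ± 0.21. TBX21, the related T-box factor T-bet, overlapped between the groups (8.38 to 10.36 in Siro.F, 10.02 to 10.78 in NoRx.F) and differed by -1.19 ± 0.50 (limma adjusted p 0.106). IFNG, interferon gamma, ranged from 5.09 to 8.42 within Siro.F alone, and its difference was 0.38 ± 0.59.

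Of 14 inhibitory receptor genes 1 was higher and 2 lower. TOX, a nuclear factor of persistently stimulated T cells, was at 9.70, 10.48, 9.98 and 10.30 in Siro.F and at 8.92, 8.36, 8.67 and 9.10 in NoRx.F, and rose by 1.34 ± 0.19 (limma adjusted p 9.18e-07). LAG3 and HAVCR2, receptors that dampen T cells, went the other way, by -1.12 ± 0.38 and -0.91 ± 0.27, but both calls were lost without Siro.F 17. LAG3 was also not called without Siro.F 13, NoRx.F 51 or NoRx.F 52, nor HAVCR2 without Siro.F 16 or NoRx.F 53, and without Siro.F 13 there were 2 members called higher. No gene of the 15 of the regulatory T cell list was called; FOXP3, its master factor, lay at 4.66 to 5.18 in the 8 arrays. In the interleukin 17 list 1 of 12 was called, IL17F, which fell by 0.53 ± 0.15 at a dim signal of 4.88 to 5.87, a call lost without Siro.F 17. Its other, still dimmer probe sets gave -1.59 and -1.52. Of 19 chemokine and homing receptors GPR183, a receptor for oxysterols that guides lymphocytes, was called, with a rise of 1.31 ± 0.33, while CXCR3 differed by -0.74 ± 0.26 (limma adjusted p 0.0548). The coreceptors CD4 and CD8A differed by 0.35 ± 0.22 and -0.47 ± 0.19, neither past the threshold.

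In the nuclear lamina list, chosen with earlier results of these data known, 2 of 10 genes were higher and 1 lower. Besides SUN1, SYNE2, a giant nesprin that SUN proteins bind, rose by 1.05 ± 0.29, a call lost without Siro.F 17 or NoRx.F 53 and with the mean of its probe sets. The other SYNE2 probe sets gave 0.20, 0.05 and 0.09. LMNB1, the lamin B1 gene that is abundant in dividing cells, differed by -0.67 ± 0.23 with overlapping groups, lost its call without 5 of the 8 arrays, and had the opposite sign in batch 2 (0.26). Of 19 p53 targets 1 was higher, SESN1, and 1 lower, BAX (-0.62), whose call was lost without Siro.F 13, Siro.F 17, NoRx.F 50 or NoRx.F 52. Of 28 autophagy and lysosome genes 1 was higher and 5 lower, with 2 lower without Siro.F 16 or Siro.F 17, 3 without NoRx.F 50 and 1 without NoRx.F 52. GLA, the lysosomal alpha-galactosidase, fell by 0.88 ± 0.18. SQSTM1, an autophagy receptor, rose by 0.50 ± 0.14 and was not called without Siro.F 16, Siro.F 18 or NoRx.F 52.

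The 5 genes whose signal followed that of PTPN13 most closely over all 81 arrays, after the batch effect was removed, were SUN1 (Pearson r 0.76), CHD6 (0.76), IL6R (0.72), TAB2 (0.72) and the unnamed locus LOC694967 (0.72). These values are a description, since the arrays fall into treatment groups. CHD6, a chromatin remodeller, rose by 1.21 ± 0.17 in Siro.F against NoRx.F and TAB2, an adaptor of the kinase TAK1, by 1.04 ± 0.19.

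The sort was for CD3 T cells, and the T cell genes CD5 and TRAT1 were bright in all 8 arrays (10.14 to 10.78 and 9.42 to 11.35), while CD3E is not named on the array here. Markers of other blood cells were present. None of the 15 monocyte and neutrophil, 7 B cell, 5 plasma cell, 6 erythroid, 8 platelet and 6 dendritic cell markers tested was called, and of 7 NK cell markers 1 was, GNLY. S100A8 and S100A9, neutrophil and monocyte proteins, differed widely within groups: S100A8 was at 12.92 and 13.42 in NoRx.F 50 and 52, at 9.02 in NoRx.F 51 and at 11.84 in Siro.F 13. The summed monocyte and neutrophil signal ranged from 11.15 to 12.77 in Siro.F and from 10.64 to 14.50 in NoRx.F, with the 2 highest values in NoRx.F 50 and 52, the arrays that were also highest for replication and mitosis. The summed platelet markers were 9.98 to 10.91 in Siro.F and 11.48 to 13.68 in NoRx.F, without overlap (exact permutation test, 2-sided p 0.0286, the smallest that 4 against 4 allow, and 0.105 adjusted over 11 values). Summed NK markers, to which GNLY gave most, were lower by 0.94, while the median over the 7 single markers was 0.26, and summed plasma cell markers by 0.16, with the same p. The 3 prime minus 5 prime signal of actin, a measure of RNA integrity, was 0.70 to 1.82 in Siro.F and 0.61 to 1.14 in NoRx.F (exact permutation p 0.257). The part of these in the differences was not tested, except that with actin as a covariate 1473 genes were called.

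Set against the 34 healthy arrays, 1725 genes were called in Siro.F (14.6%; 976 higher, 8.27%, and 749 lower, 6.34%) and 4181 in NoRx.F (35.4%; 2361 higher, 20%, and 1820 lower, 15.4%). These comparisons share the healthy arrays, and each shares its transplant arrays with the comparison above. The Siro.F count was 879 without Siro.F 18. PTPN13 differed from the healthy controls by 0.01 in Siro.F (limma adjusted p 0.99) and by -3.26 in NoRx.F. SUN1 differed by -0.41 (limma adjusted p 0.13) and by -2.42, TCF7 by -0.24 and by -1.64. CISH went to both sides of the healthy level, 1.28 above in Siro.F (limma adjusted p 0.0018) and 1.25 below in NoRx.F (-1.25, limma adjusted p 0.0011). AATK was likewise 0.97 above and at -1.52. NDFIP2, EOMES and PIM1 were above the healthy level in Siro.F by 1.19, 1.07 and 0.77.

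For cell division the Siro.F arrays also lay above the healthy controls: 30 of the 35 mitotic genes were called higher in Siro.F than in healthy controls and 34 in NoRx.F, with medians of 1.19 and 1.88. For replication these were 23 and 26 of 30, with medians of 0.95 and 1.58. Over all genes the shares called higher than in healthy controls were unlike too, 8.27% in Siro.F and 20% in NoRx.F. CCNB2 was higher by 2.40 in Siro.F and by 4.77 in NoRx.F. Oxidative phosphorylation had 5 of 32 genes higher in Siro.F and 25 in NoRx.F, the mitochondrial ribosome 7 and 27 of 31, and the proteasome 9 and 23 of 25. LAG3 was higher than in healthy controls by 2.69 in Siro.F and by 3.82 in NoRx.F. TAGAP and ZBTB20 were lower than in healthy controls in Siro.F as well, with differences of -1.02 and -1.0, and of -2.95 and -2.75 in NoRx.F. The cytosolic ribosome list had 3 of 27 genes lower in Siro.F and 19 in NoRx.F, against 6.34% and 15.4% of all genes.

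Animals 13, 16, 18 and 53 have a healthy array of their own. After an allogeneic transplant final T cells can come from the donor, so a pair need not hold the same cells. Deposited values are given, and for animal 16 the healthy array is of batch 2 and the Siro.F array of batch 1. PTPN13 went from 7.04 to 7.44 in animal 13, from 8.84 to 8.13 in animal 16 and from 7.97 to 7.44 in animal 18, all under Siro, and from 8.21 to 4.98 in the untreated animal 53. CISH went from 8.65 to 9.68, from 9.12 to 10.25 and from 8.41 to 10.16 in the Siro.F animals and from 8.40 to 8.89 in animal 53. CCNB2 went from 5.67 to 8.49, from 6.04 to 7.48 and from 6.16 to 9.28, and in animal 53 from 5.08 to 9.95. So PTPN13 differed between the arrays of a pair by less than 1 in each of the 3 treated animals. It differed by more than 3 in the untreated one, while CCNB2 was above the animal's own healthy array in all 4.

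Against the final arrays of other prophylaxis few genes differed. Siro.F and Tac.Mtx.F, taken to be tacrolimus with methotrexate (3 arrays, all of batch 3), differed in 23 genes (0.195%), 6 higher (0.0508%) and 17 lower (0.144%) in Siro.F, and 1470 genes had an unadjusted p under 0.05. The groups share no batch, and with no batch term 303 genes were called; without Siro.F 18 it was 5 and without Tac.Mtx.F 19 it was 11. Tacrolimus inhibits calcineurin, the phosphatase that activates NFAT. NFATC1 was at 8.84, 9.11 and 9.52 in Tac.Mtx.F, below all Siro.F arrays, and differed by 1.21 ± 0.27 (limma adjusted p 0.02), a call lost without Siro.F 18, Tac.Mtx.F 19 or Tac.Mtx.F 20. The following genes fall outside the rule for named genes and were chosen after their values were seen. SMIM3, a small membrane protein, was at 8.72 to 9.65 in Tac.Mtx.F and 6.83 to 7.57 in Siro.F (-1.97 ± 0.29). JAZF1, a zinc finger cofactor, was at 9.40 to 10.06 in Tac.Mtx.F and 8.03 to 8.43 in Siro.F (-1.55 ± 0.26). The calls of SMIM3 and JAZF1 held with any 1 of the 7 arrays left out. TWIST1, a transcription factor that T cells can induce on repeated stimulation, was at 4.71 to 6.03 in Tac.Mtx.F and 3.57 to 3.95 in Siro.F. All its Siro.F, NoRx.F and healthy values were below the filter level of 4.65, and it was tested only because other groups exceeded that level, so the size of its difference is not given. ID3, an inhibitor of E proteins, was higher in Siro.F by 1.93 ± 0.43, a call lost without 4 of the 7 arrays.

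**Figure D5:**
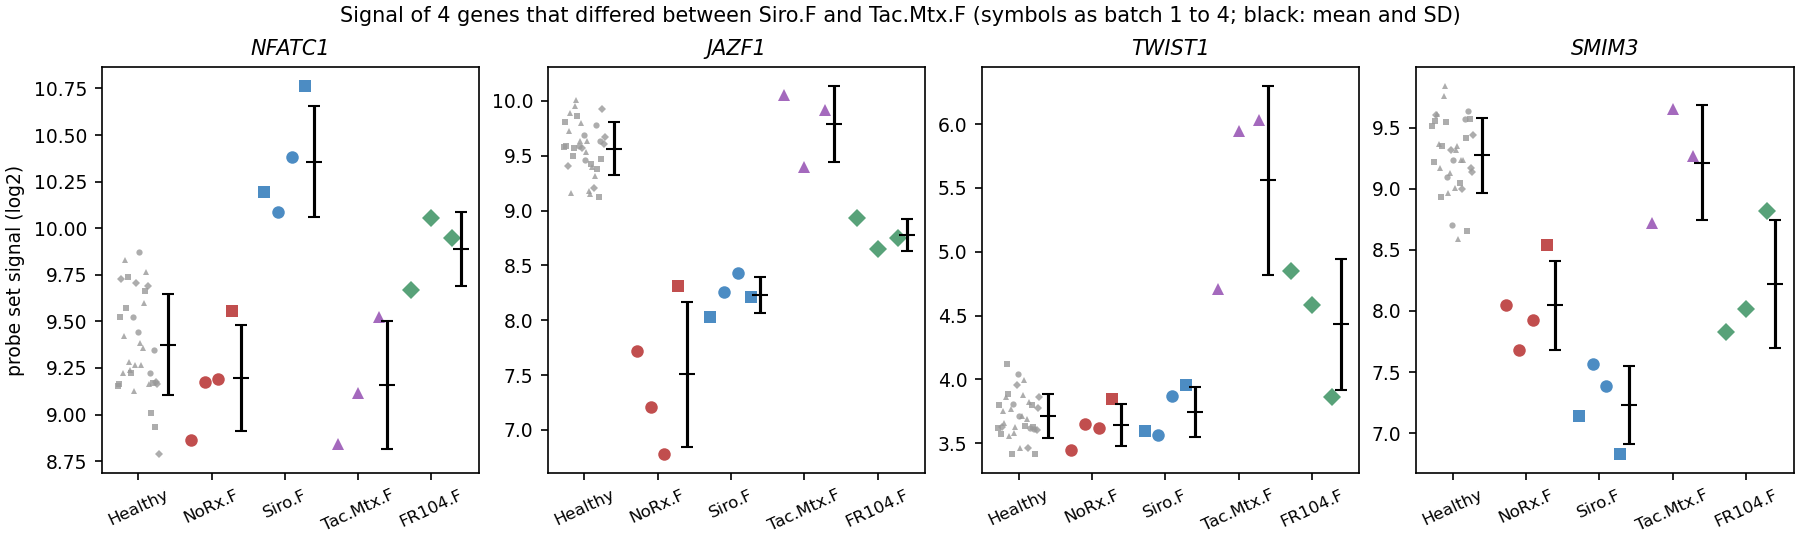
Points are the log2 signal of 4 genes in each array of 5 groups, with symbols by batch and the mean and SD in black. NFATC1 is higher in the 4 Siro.F arrays than in the 3 Tac.Mtx.F arrays, without overlap. JAZF1, TWIST1 and SMIM3 are lower without overlap, but were chosen after these values were seen, so this is no independent result. TWIST1 is below the filter level of 4.65 in every Siro.F array and was tested only because other groups exceeded that level. Siro.F and Tac.Mtx.F share no batch.

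Siro.F and FR104.F, an antibody fragment that blocks CD28 (3 arrays, all of batch 4), differed in 0 genes by limma (0%), with 1068 at an unadjusted p under 0.05 and 94 called with no batch term. PTPN13 was at 6.79 ± 1.14 (SD, n = 3) in FR104.F and 7.94 ± 0.59 in Tac.Mtx.F, against 7.78 ± 0.39 (n = 4) in Siro.F. CISH was at 10.28 ± 0.53 in FR104.F, 9.38 ± 0.38 in Tac.Mtx.F and 10.07 ± 0.26 in Siro.F. CCNB2 was at 8.18 ± 0.82, 7.5 ± 1.61 and 8.11 ± 0.96 in the same order. PTPN13 was spread widely in FR104.F, at 8.08, 5.93 and 6.36 in animals 22, 23 and 24, the last 2 of them below every Siro.F array. CISH was lower in Tac.Mtx.F than in Siro.F by 0.72, short of the threshold (limma adjusted p 0.53). That few genes were called does not show that the treatments act alike, with 3 or 4 arrays a group and no shared batch.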

How the data were processed

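The authors deposited log2 signals per probe set; RMA and affy are named, with no version, per the submitters' processing notes. The scanner files were not used here. In the healthy arrays batches differed less than chance would give: 61.02% of probe sets had a p over 0.95 (F test), where 5 percent would be usual. The values appear to carry an adjustment for batch, which is not given in the sources used here, and if so the spread may be understated. Groups, animals and the 4 batches came from the labels, which make each array of a group a separate animal.

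Of 52865 probe sets 24969 name 1 gene. The probe set with the highest mean stood for a gene (14132 genes), and 11806 genes were tested, those exceeding 4.65 (percentile 40 of the whole table) on 2 arrays or more. limma 3.58.1 in R 4.3.3 (lmFit with group and batch over 81 arrays, 62 residual degrees of freedom, eBayes with a trend) gave 2-sided p-values with Benjamini-Hochberg adjustment. The fit was tested on simulated data. The block by animal used duplicateCorrelation with statmod 1.5.0, and figures matplotlib 3.10.9.

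Genes were named by a rule: a fixed set, the 10 largest rises and falls among called genes without overlap, up to 5 members of each of 36 lists by adjusted p, and the 5 genes most like PTPN13; a part of them is printed. The arrays, lists and rule were chosen with earlier results of these data known. Lists are described by counts and medians, with no set test. Alternatives were the batch term, the animal block, the filter, the mean of probe sets, renewed quantile normalization, every probe set, the 8 arrays alone, batches 1 and 2 with their healthy arrays, each batch alone, actin integrity as a covariate, and each array left out.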

Additional observations from a re-analysis of the deposited data

Results flagged for a closer look

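In groups of 4 arrays, 17 of 262 groups tested had an array whose gap to the next was wide for the range of its group (6.49%, where chance gives about 1 in 20). In Siro.F 13 CISH was lowest at 9.68, RPL10A highest at 13.84, IL27RA lowest at 10.83 and S100A9 highest at 11.05. In Siro.F 16 LTB was lowest at 12.72, ISG15 lowest at 8.26, KLRF1, an NK cell receptor, highest at 9.90, and the summed erythroid markers highest at 7.93. In Siro.F 17 CD8A was lowest at 11.95.

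NoRx.F 53 was the highest of its group for CISH (8.89), ZFP36L1 (10.74), TSC22D3 (11.90), ARRDC3 (9.31) and KLRF1 (9.01), in each the array nearest to Siro.F or within its range. It is also the only untreated recipient of batch 2, so animal and batch cannot be told apart here. In NoRx.F 51 FOXP3 was highest at 5.18 and the summed dendritic cell markers lowest at 9.41, and in NoRx.F 50 IRF1 was lowest at 9.14.

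NFATC1 differed between the treatments Siro.F and Tac.Mtx.F by 1.21, as tested by limma.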

How the results depend on the processing

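A set of 95 called genes was followed through the alternatives, and it is not the same as the called genes named above. For example, HPSE and LGALS1 are in the set but not named above, while CHD6 and TAB2 are named but not in it. Of these 95 genes, 65 kept their call with any 1 of the 8 arrays left out. The call was kept by 51 in all alternatives other than batch 2 alone, where 4 genes were called in all (0 higher, 4 lower). The 1425 calls became 505 with the 8 arrays alone (250 higher, 255 lower; 452 shared) and 2669 over all probe sets (1329 higher, 1340 lower); with the mean of probe sets 392 were higher, and MAPKAP1, SHMT2, PSMB2, RPL30, FOXP1, TXNIP, PIAS1, STAT5B, IL4R, CD69, RGS1, IL1R2, SYNE2, LMNB1 and SQSTM1 were not called. Leaving out 1 array gave 845 to 1681 calls (423 to 817 higher, 408 to 864 lower), 879 to 1487 for Siro.F against healthy controls, 5 to 32 against Tac.Mtx.F and 0 to 1 against FR104.F. With the animal as a replicate block (correlation 0.194) 1616 genes were called and 41 against Tac.Mtx.F; no animal has an array in both groups, so the block pairs none of the 8 arrays. With no batch term 303 genes were called against Tac.Mtx.F and 94 against FR104.F, and with quantile normalization 1 against FR104.F.

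Signs turned in batch 2 alone for SHMT2 (0.093), IL4R (-0.071), LMNB1 (0.26), RPTOR (-0.014), MTOR (0.062), RPS6KB1 (0.097), IFNG (-0.068), S100A8 (0.099), KLRF1 (-1.99) and the median of the mitosis list (0.0040). They also turned for RPS6KB1 with quantile normalization (0.0017) and the actin covariate (0.00048). With 1 array left out RPS6KB1 ranged from -0.11 to 0.097, MTOR from -0.073 to 0.00034, RPTOR from -0.051 to 0.12 and IFNG from -0.18 to 0.89. The cause was not tested. Weak signal limits genes near the level of the filter, such as FKBP1A, FOXP3, IL17F and TWIST1.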
